A study of Bos taurus with 6 samples.

Results

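The 10 genes described here are markers by which mesenchymal stromal cells and preadipocytes are recognised: PDGFRA, PDGFRB, DLK1, CD34, THY1, ENG, NT5E, CD44, DPP4 and ZNF423. They were chosen by symbol, and all 10 have a row among the 23475 genes of the deposited table. A mean of at least 0.5 FPKM was reached by 8 of the 10 and by 12422 genes in all, which were tested. The study examined what bta-miR-484, a bovine microRNA, does in fat cell precursors. RNA was sequenced from cells of bovine subcutaneous fat, labelled adipocyte and called preadipocytes in the study, after 48 h of transfection with a bta-miR-484 agomir (3 libraries) or with an agomir NC (3 libraries). An agomir is a chemically modified RNA duplex that raises the amount of its microRNA, with the agomir NC as its negative control. The cells of both groups had been transfected with a duplex and had grown in the same medium with fetal bovine serum. The tissue came from calves, and no source used here says which calf or culture gave which library, so the p-values below measure only the spread between these libraries, which may be technical.

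Fat cells arise from fibroblast-like stromal cells that divide, commit to the lineage as preadipocytes and then fill with lipid. Their precursors are recognised by surface proteins they share with other mesenchymal cells, among them the PDGF receptors and the antigens CD105 (ENG), CD73 (NT5E) and CD90 (THY1), and by factors such as ZNF423 that prepare the adipocyte programme. CD34 is carried by precursors in fresh tissue and by endothelial cells, and DLK1, also known as preadipocyte factor 1, holds some preadipocytes back from differentiation.

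With the agomir NC, PDGFRA, CD44 and PDGFRB were the highest of the markers and NT5E, THY1 and ENG came next. ENG was 10.7 times as high as ZNF423, which was close to DPP4, while CD34 was below 1 FPKM and DLK1 was listed at 0. With the bta-miR-484 agomir, 0 of the 8 markers abundant enough to test passed an adjusted p of 0.05 in limma, where 0.00805% of all genes tested did, and 1 of 8 had an unadjusted p under 0.05, where 10.9% of all genes did. Of these 8, NT5E differed most, at 73.2 ± 3.73 FPKM in agomir libraries and 87.2 ± 3.56 FPKM in controls (SD, n = 3 each), a difference of -16.0% of the control mean. The PDGF receptors and CD44 differed between the group means by less than 1%. FPKM counts fragments relative to the length of the transcript and to all mapped fragments of the library, so that genes can be set side by side.

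PDGFRA and PDGFRB are the receptor tyrosine kinases for the platelet-derived growth factors, and PDGFRA marks the adipogenic part of the stroma while PDGFRB is also a mark of pericytes. PDGFRA had 161.9, 172.1 and 167.0 FPKM in agomir NC replicates 1, 2 and 3, and 166.99, 163.3 and 166.0 FPKM in agomir replicates 1, 2 and 3. It was the highest of the 10 markers in all 6 libraries, above 98.7% of all genes of the table, and the groups overlapped. PDGFRB had 124.6, 143.0 and 128.9 FPKM in the agomir NC libraries and 133.7, 132.2 and 133.9 FPKM in the agomir libraries. All 3 agomir libraries lay inside the range of the control libraries. The log2 fold change, taken as agomir over agomir NC of FPKM + 0.5, was -0.013 for PDGFRA (95% interval -0.10 to 0.074) and 0.014 for PDGFRB (95% interval -0.10 to 0.13). These intervals leave room for a fold between 0.933 and 1.05 for PDGFRA and between 0.931 and 1.095 for PDGFRB. The ratio of PDGFRA to PDGFRB was 1.24 ± 0.00705 with the agomir and 1.27 ± 0.0545 with the agomir NC (SD, n = 3 each; two-sided exact permutation, p = 0.4).

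CD44 is the cell surface receptor for the matrix polysaccharide hyaluronan. It had 131.6, 133.5 and 138.9 FPKM in agomir NC replicates 1 to 3 and 134.6, 132.3 and 138.9 FPKM in those of the agomir. Its values overlapped from end to end, and the log2 fold change was 0.0066 (95% interval -0.085 to 0.098). The log2 fold changes of PDGFRA, PDGFRB, CD44 and DPP4 were so close to 0 that their sign depended on single libraries. No direction is therefore given for these genes. In agomir NC the libraries of CD44 and PDGFRB overlapped, and these neighbours in the order of levels could not be separated beyond their spread.

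**Figure D1:**
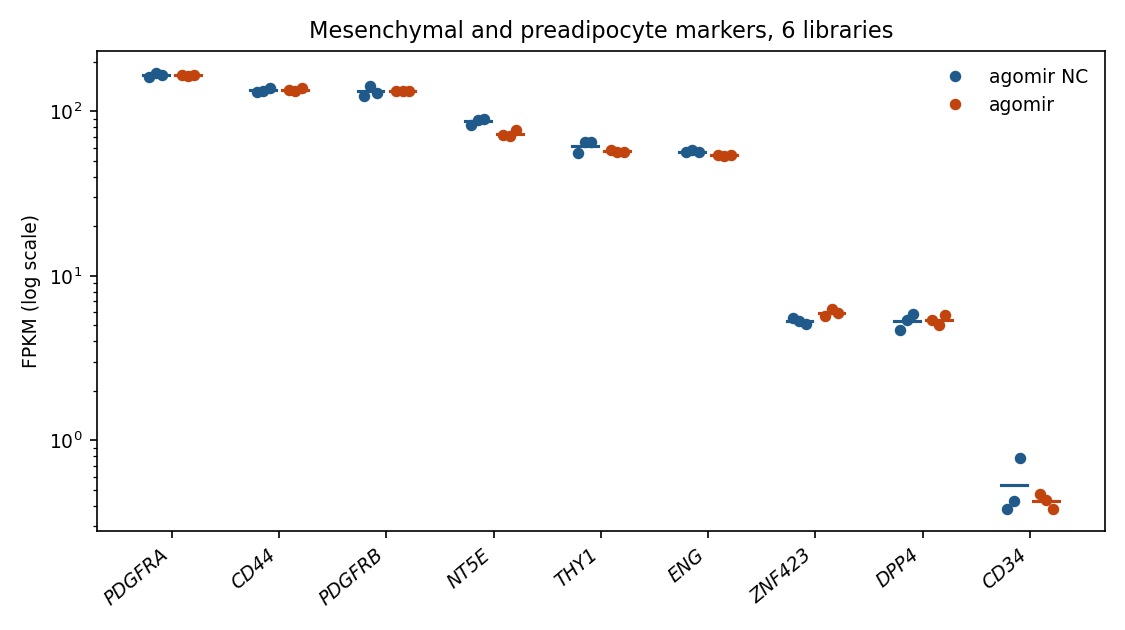
FPKM (log axis) of the 9 markers with a value above 0, in the order of their agomir NC means, with a point for each of 3 libraries a group and a line at the group mean. NT5E shows agomir libraries at 70.6 to 77.5 FPKM below agomir NC libraries at 83.1 to 89.4 FPKM, and DLK1 is left out because it is listed at 0.

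NT5E, THY1 and ENG are the antigens used together to define mesenchymal stromal cells in culture. NT5E encodes the ecto-enzyme that turns extracellular AMP into adenosine. It had 83.1, 89.2 and 89.4 FPKM in the 3 agomir NC libraries and 71.7, 70.6 and 77.5 FPKM in the 3 agomir libraries. All agomir libraries were below all control libraries, with a gap of 5.62 FPKM between the groups. The log2 fold change was -0.25 (standard error 0.051, 95% interval -0.37 to -0.14), and limma gave an unadjusted p of 0.000692, or an adjusted p of 0.209 after Benjamini-Hochberg adjustment over the 12422 genes tested. The difference was thus larger than the spread between replicates for this gene by itself but did not pass the correction for all genes, and 92.8% of the genes tested had a smaller change in size. NT5E kept an unadjusted p under 0.05 in limma in all 15 alternative settings, where its log2 fold change ranged from -0.29 to -0.22 and its adjusted p from 0.177 to 0.498. In bulk RNA, fewer cells of a type and less RNA per cell cannot be told apart.

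ENG, an auxiliary receptor for TGF-beta and BMP ligands, had 56.3, 58.2 and 56.5 FPKM in agomir NC replicates 1 to 3 and 54.2, 53.7 and 53.97 FPKM in those of the agomir. The agomir libraries again lay below the control libraries, by a gap of 2.05 FPKM. The difference was small, with group means of 53.97 ± 0.252 and 57.0 ± 1.05 FPKM (SD, n = 3 each). Its log2 fold change was -0.078 (95% interval -0.17 to 0.012; limma, adjusted p = 0.521). THY1, a small glycoprotein anchored in the outer membrane of fibroblasts and neurons, had 55.7, 65.3 and 64.9 FPKM in agomir NC replicates 1 to 3 and 58.3, 56.3 and 56.7 FPKM in those of the agomir. Agomir NC replicate 1 was the lowest of the 6 libraries, so the groups overlapped. The log2 fold change of THY1 was -0.11 (95% interval -0.25 to 0.026, adjusted p = 0.55 in limma). Leaving out 1 control library moved it in both directions, to -0.19 without agomir NC replicate 1 (limma, adjusted p = 0.269), to -0.074 without replicate 2 (limma, adjusted p = 0.741) and to -0.079 without replicate 3 (limma, adjusted p = 0.771).

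The proportions of the 3 antigens were compared within libraries. The ratio of NT5E to ENG within a library was between 1.31 and 1.44 with the agomir and between 1.48 and 1.58 with the agomir NC, so these ranges were apart (two-sided exact permutation, p = 0.1, the smallest that 3 against 3 libraries can give). The ratio of NT5E to THY1 was between 1.23 and 1.37 against between 1.37 and 1.49 and overlapped by a narrow margin (two-sided exact permutation, p = 0.2). The ratio of ENG to THY1 was 0.945 ± 0.0131 with the agomir and 0.924 ± 0.0746 with the agomir NC (SD, n = 3 each; two-sided exact permutation, p = 0.6). THY1 and ENG were neighbours in the order of levels, and their control libraries overlapped, while their agomir libraries did not.

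ZNF423 encodes a zinc finger transcription factor that commits stromal cells to the preadipocyte state. It had 5.55, 5.32 and 5.12 FPKM in agomir NC replicates 1 to 3 and 5.67, 6.29 and 5.97 FPKM in those of the agomir. All agomir libraries lay above all control libraries, but the gap was 0.121 FPKM. The log2 fold change was 0.15 (95% interval -0.021 to 0.32), and limma gave an unadjusted p of 0.0785 (adjusted p = 0.516). DPP4, a serine peptidase of the cell surface found on early adipose progenitors, had 4.72, 5.36 and 5.87 FPKM in agomir NC replicates 1 to 3 and 5.40, 5.00 and 5.75 FPKM in those of the agomir. The groups overlapped, and the log2 fold change was 0.020 with a 95% interval from -0.19 to 0.23, the widest among the 8 markers tested. ZNF423 and DPP4 overlapped in both groups, so their order was not resolved.

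CD34 and DLK1 were below the mean of 0.5 FPKM that the test required. CD34, a sialomucin, had 0.383, 0.431 and 0.783 FPKM in agomir NC replicates 1 to 3 and 0.469, 0.437 and 0.384 FPKM in those of the agomir. Agomir NC replicate 3 stood above the other 5 libraries, which were all between 0.383 and 0.469 FPKM, and the groups overlapped (two-sided exact permutation, p = 0.9, n = 3 each). Without the filter, the log2 fold change of CD34 was -0.13 (limma, adjusted p = 0.835). Its group means differed by -19.3% of the control mean, with the control SD at 41.1% of that mean. Without agomir NC replicate 3 the control mean was 0.407 FPKM, below the agomir mean of 0.430 FPKM, so the direction rested on that library. DLK1 was listed at 0 in all 6 libraries, and without read counts a failed estimate cannot be told from an absence of reads. In the RefSeq gene table of cattle it lies next to MEG3, a long noncoding RNA of the same imprinted region, which was not analysed here. The other genes of that region on the list, RTL1 and DIO3, were at no more than 0.0650 and 0.208 FPKM in any library.

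**Figure D2:**
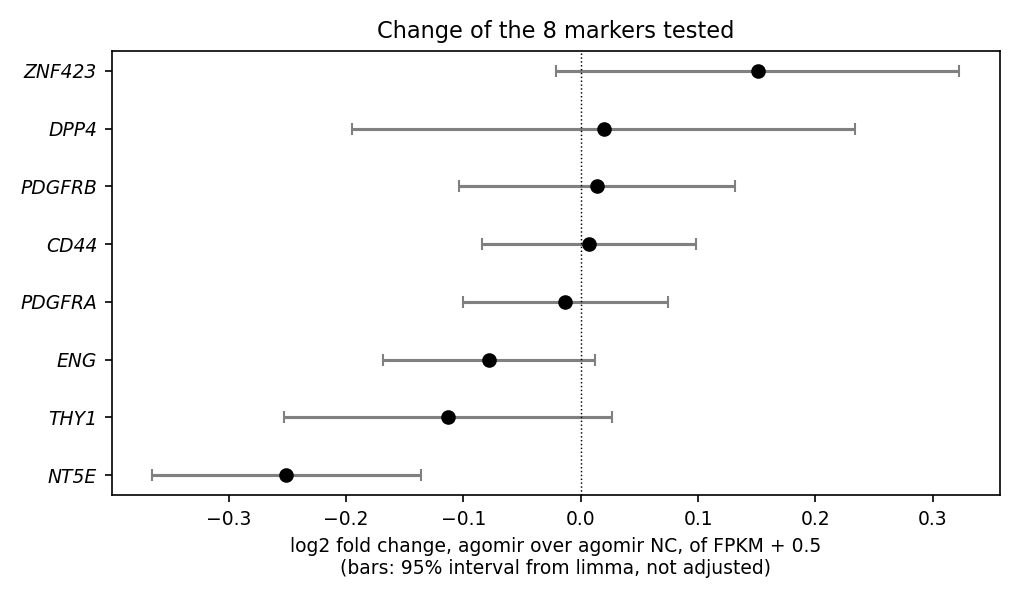
Log2 fold change of FPKM + 0.5, agomir over agomir NC, for the 8 markers tested, with limma's estimates from 3 libraries a group as points and bars for 95% intervals without adjustment for the number of genes. The interval of NT5E, from -0.37 to -0.14, lies below 0, and those of the other 7 markers include 0.

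The marker under an unadjusted p of 0.05 was NT5E. The groups did not overlap in 3 of the 8, which were NT5E, ENG and ZNF423, where 17.2% of all genes tested had groups that did not overlap. Lower with the agomir were 2 of the 8 (6.36% of all genes tested) and higher was 1 of the 8 (10.9% of all genes tested). With so few genes these counts do not set the markers apart from other genes. The log2 fold change was positive in 4 of the 8, with a median of -0.0033. Of all genes tested, 55.1% were positive, with a median of 0.013. These 4 markers include PDGFRB, CD44 and DPP4, for which no direction is given. With median-ratio scaling the log2 fold change of the markers was positive in 2 of the 8. Without agomir NC replicate 1 it was positive in 1 of 9, with a median of -0.056, and without agomir replicate 3 in 2 of 9, with a median of -0.025, CD34 being tested in both. Without agomir replicate 2 the median was 0.0078 and without agomir NC replicate 2 it was 0.0045, so its sign depended on single libraries. Summed over the 10 genes, the markers had 630.1 ± 9.46 FPKM in agomir libraries and 651.2 ± 24.8 FPKM in controls (SD, n = 3 each), and the groups overlapped (two-sided exact permutation, p = 0.3).

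The order of the markers was nearly fixed. PDGFRA was highest, NT5E was the fourth, CD34 the ninth and DLK1 the tenth in each library, and the exchanges were those between CD44 and PDGFRB, THY1 and ENG, and ZNF423 and DPP4. Between replicates, the markers above 0 varied with a median coefficient of variation of 2.46% with the agomir and 4.09% with the agomir NC, where all genes tested had 6.44% and 7.06%. The sets differ in level, since PDGFRA, CD44, PDGFRB, NT5E, THY1 and ENG each lay above at least 95.7% of all genes of the table. No genes of like level were compared, and CD34 is among the markers here though it was not tested. The SD was larger in the agomir NC libraries for 7 of the 9 markers above 0, and for 6700 of the 12422 genes tested. The most uneven was CD34, at 41.1% among the agomir NC libraries, and the most even was ENG, at 0.467% among the agomir libraries.

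The genes that work with each marker were followed through lists set by function. Over 18 lists with 135 genes, 133 were in the table and 90 were tested. None of the 90 passed an adjusted p of 0.05 in limma, and 20 had an unadjusted p under 0.05, 9 higher and 11 lower with the agomir, where the rates over all genes tested were 6.63% higher and 4.31% lower. The genes named from these lists are the 2 most abundant of each, those under an unadjusted p of 0.05 and those listed at 0 in every library. For those 20 genes limma's adjusted p was between 0.257 and 0.453. With 1 library left out, the 20 became 11 without agomir replicate 3 and 13 without agomir replicate 2. Over the 16 settings, 8 of the 20 stayed under an unadjusted p of 0.05 in all, which were HAS2, CEMIP, ENTPD2, SLC29A1, FAP, ITGA5, SEMA3C and ICAM1, while DPP9 was under it in 5 and TGFBR3 and F3 in 8 each. The 20 were chosen for that p and the settings reuse the same libraries, so staying under it was likely. No such share is given for all genes tested, so the 8 are not set apart by it.

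Around NT5E, the list of extracellular adenosine genes had 7 genes tested of 10, with a median log2 fold change of -0.19. Of these 7, 6 had a negative log2 fold change, where 55.1% of all genes tested were positive, but the groups were apart in 2 of the 6, SLC29A1 and ENTPD2 (apart and lower in 6.36% of all genes tested). In limma 0 of the 7 passed an adjusted p of 0.05 and 2 had an unadjusted p under 0.05 (10.9% of all genes tested). SLC29A1, the equilibrative nucleoside transporter that carries adenosine across the membrane, was the most abundant of the list. It had 98.0, 119.6 and 110.6 FPKM in agomir NC replicates 1 to 3 and 94.998, 92.5 and 93.3 FPKM in those of the agomir, and all agomir libraries lay below the controls. Its log2 fold change was -0.22 (limma, adjusted p = 0.314, SE 0.065). ENTPD2, an ecto-enzyme that breaks down ATP, had 36.5, 40.001 and 39.1 FPKM in agomir NC replicates 1 to 3 and 36.2, 32.8 and 31.8 FPKM in those of the agomir. Its groups were apart by a narrow margin, and the log2 fold change was -0.19 (limma, adjusted p = 0.333, SE 0.061). ADORA2B, the adenosine receptor with the highest level on the list and named after its values were seen, differed little, with 13.8, 15.4 and 14.9 FPKM against 13.9, 14.7 and 14.9 FPKM. ADORA3, another adenosine receptor, was listed at 0 in all libraries. Summed over the 10 genes, the list was at 165.6 ± 4.27 FPKM in agomir libraries and 189.7 ± 13.4 FPKM in controls (SD, n = 3 each), and most of that sum was SLC29A1.

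Around CD44, the list of hyaluronan genes had all 12 genes tested, with a median log2 fold change of -0.046. In limma 2 of the 12 had an unadjusted p under 0.05 (10.9% of all genes tested), in opposite directions. The groups were apart and higher with the agomir in 2 of the 12 (10.9% of all genes tested). Apart and lower were 3 of the 12 (6.36% of all genes tested). HAS2, a hyaluronan synthase, had 6.07, 5.46 and 6.22 FPKM in agomir NC replicates 1 to 3 and 6.75, 7.56 and 7.96 FPKM in those of the agomir. CEMIP, a protein needed for the breakdown of hyaluronan, had 33.5, 36.6 and 33.5 FPKM in agomir NC replicates 1 to 3 and 28.7, 29.3 and 30.6 FPKM in those of the agomir. The groups of each gene were apart, with the agomir libraries above the controls for HAS2 and below them for CEMIP. The log2 fold change was 0.30 (adjusted p = 0.31, SE 0.086) for HAS2 and -0.22 (adjusted p = 0.257, SE 0.054) for CEMIP in limma. The most abundant genes of this list were VCAN, a proteoglycan that binds hyaluronan, and MSN, which links CD44 to actin. Their log2 fold changes were 0.029 for VCAN and -0.058 for MSN, and neither was under an unadjusted p of 0.05. The groups of VCAN overlapped, while MSN was lower in every agomir library than in any control, by a gap of 3.26 FPKM.

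**Figure D3:**
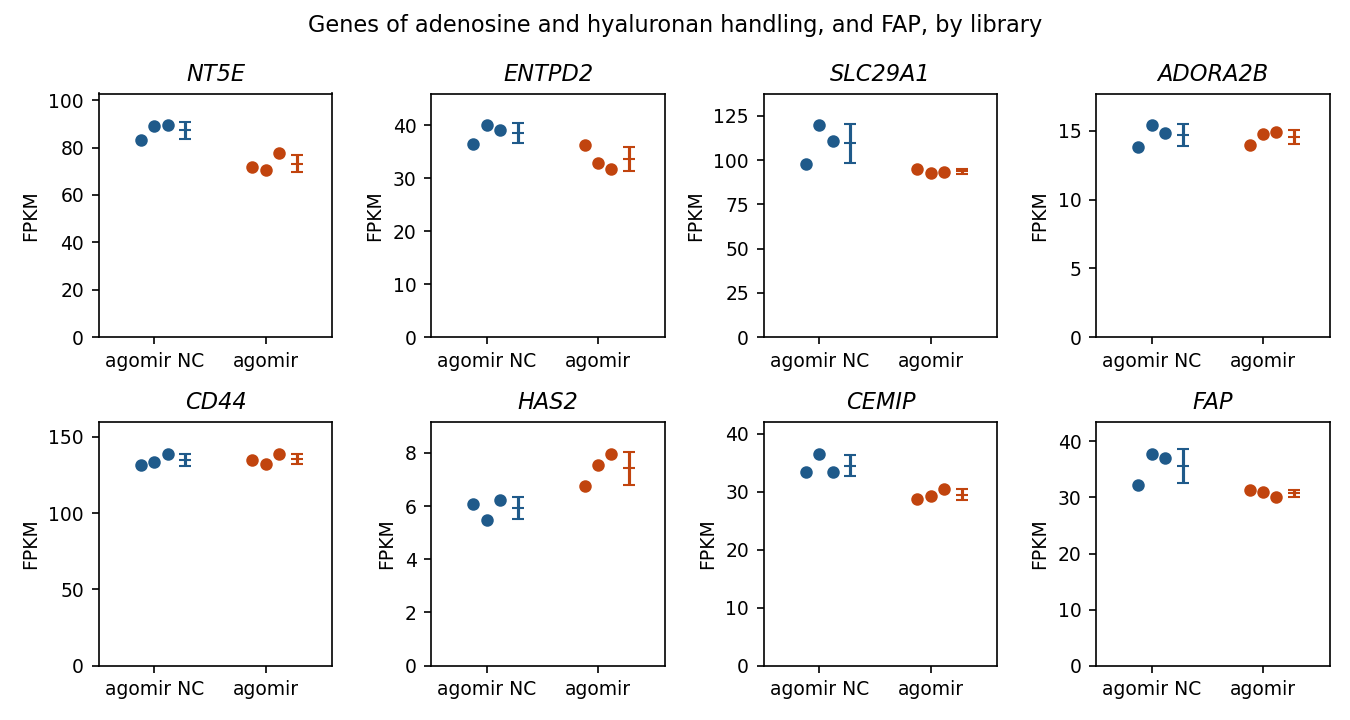
FPKM (linear axes from 0) of NT5E, 3 genes of adenosine handling, CD44, 2 genes of hyaluronan turnover and FAP, with libraries as points and mean ± SD of 3 beside them. CD44 and ADORA2B overlap between the groups, while HAS2 lies higher and NT5E, ENTPD2, SLC29A1, CEMIP and FAP lie lower in every agomir library than in any agomir NC library.

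For the PDGF receptors, the ligand genes were PDGFA, PDGFB, PDGFC and PDGFD, of which 3 were tested. PDGFC was the most abundant, at 26.8, 28.8 and 30.7 FPKM in agomir NC replicates 1 to 3 and 29.0, 30.2 and 28.1 FPKM in those of the agomir, and its groups overlapped. PDGFD, whose product binds mainly PDGFRB, had 16.5, 19.6 and 16.8 FPKM in agomir NC replicates 1 to 3 and 15.7, 14.7 and 15.7 FPKM in those of the agomir. The agomir libraries of PDGFD were below the control libraries, with a log2 fold change of -0.19 (limma, adjusted p = 0.399, SE 0.073). Without agomir NC replicate 2 the log2 fold change of PDGFD was -0.12 (limma, adjusted p = 0.591), and it was under an unadjusted p of 0.05 in 14 of 16 settings. PDGFB was listed at 0 in all 6 libraries. The median log2 fold change of the 3 ligands was -0.19, and the lowest was -0.30, for PDGFA (limma, adjusted p = 0.464). In 2 of the 3 the groups were apart and lower with the agomir, as they were in 6.36% of all genes tested.

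ENG acts with the receptors of the TGF-beta family, and all 8 genes of that list were tested, with a median log2 fold change of 0.043. TGFBR3, a coreceptor related to ENG, was the most abundant, at 102.4, 104.8 and 103.9 FPKM in agomir NC replicates 1 to 3 and 109.5, 111.4 and 110.1 FPKM in those of the agomir. All agomir libraries of TGFBR3 lay above the controls, where those of ENG lay below, and the log2 fold change was 0.089 (limma, adjusted p = 0.429, SE 0.037). BMPR2, the type II receptor of BMP ligands, had 18.4, 18.4 and 17.3 FPKM in agomir NC replicates 1 to 3 and 19.4, 20.5 and 20.001 FPKM in those of the agomir, with a log2 fold change of 0.14 (limma, adjusted p = 0.399, SE 0.054). TGFBR1, the second in abundance, had overlapping groups and a log2 fold change of 0.021.

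FAP is the closest relative of DPP4 on the list of prolyl peptidases and lies near it in the RefSeq table of ARS-UCD2.0, with 1 protein-coding gene, GCG, between them. FAP had 32.2, 37.8 and 37.0 FPKM in agomir NC replicates 1 to 3 and 31.3, 30.9 and 30.1 FPKM in those of the agomir. Its agomir libraries were all lower, with a log2 fold change of -0.21 (limma, adjusted p = 0.33, SE 0.064), while DPP4 overlapped. Of the other peptidases, DPP7 was the most abundant and had overlapping groups with a log2 fold change of -0.022, and DPP9 had a log2 fold change of 0.12 (limma, adjusted p = 0.453, SE 0.054). DPP6 and DPP10 were listed at 0 in all libraries.

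Among the partners of ZNF423, all 8 genes were tested, with a median log2 fold change of 0.010. ZNF521, its paralog and an inhibitor of adipogenesis, was named after its values were seen. It had 5.61, 5.76 and 5.21 FPKM in agomir NC replicates 1 to 3 and 5.54, 5.36 and 5.65 FPKM in those of the agomir, close to the level of ZNF423. TLE3, a transcriptional cofactor of adipogenesis, had 12.7, 12.7 and 13.2 FPKM in agomir NC replicates 1 to 3 and 14.9, 13.7 and 15.2 FPKM in those of the agomir, with a log2 fold change of 0.18 (limma, adjusted p = 0.364, SE 0.061). EBF1, a transcription factor that binds ZNF423, and SMAD4, the shared partner of BMP and TGF-beta signals, were the most abundant and had log2 fold changes of -0.0018 and -0.029.

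In the list around DLK1, 5 of the 8 genes found were tested, with a median log2 fold change of 0.093. In limma 0 of the 5 had an unadjusted p under 0.05 (10.9% of all genes tested). NOTCH2, a receptor of the pathway that DLK1 can dampen, was the most abundant, at 84.7, 85.0 and 72.8 FPKM in agomir NC replicates 1 to 3 and 85.5, 88.98 and 83.7 FPKM in those of the agomir. Its groups overlapped. NOTCH1 was the second in abundance, with a log2 fold change of 0.093 and overlapping groups. HEY1 had 0.582, 0.843 and 0.773 FPKM in agomir NC replicates 1 to 3 and 1.02, 0.997 and 1.02 FPKM in those of the agomir. Its agomir libraries all lay above the controls, with a log2 fold change of 0.30 (limma, unadjusted p = 0.0548, adjusted p = 0.467, SE 0.14). Of the 5 genes tested, 1 was apart and higher (10.9% of all genes tested) and 0 were apart and lower (6.36% of all genes tested).

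Of 8 other surface antigens of mesenchymal stromal cells, 7 were tested and 0 passed an adjusted p of 0.05 in limma, with 4 under an unadjusted p of 0.05 (10.9% of all genes tested) and a median log2 fold change of -0.090. CD63 and CD9, tetraspanins of vesicles and membranes, were the most abundant. CD9 had 488.4, 521.2 and 543.9 FPKM in agomir NC replicates 1 to 3 and 466.3, 467.2 and 477.5 FPKM in those of the agomir, a log2 fold change of -0.14 (SE 0.045), and CD63 had a log2 fold change of -0.10 (SE 0.043). Under quantile normalization these were -0.091 for CD9 and -0.067 for CD63, and of 16 settings CD9 was under an unadjusted p of 0.05 in 15 and CD63 in 10. VCAM1, an adhesion molecule, had 36.7, 45.4 and 42.9 FPKM in agomir NC replicates 1 to 3 and 36.1, 35.5 and 36.7 FPKM in those of the agomir, a log2 fold change of -0.20 (SE 0.072). The integrin subunit gene ITGA5 lay the other way, at 177.6, 171.5 and 174.5 FPKM in agomir NC replicates 1 to 3 and 187.7, 191.8 and 191.5 FPKM in those of the agomir, a log2 fold change of 0.12 (SE 0.037). In each of these 4 genes, chosen for an unadjusted p under 0.05, the groups were apart, for VCAM1 by 0.0648 FPKM. Their adjusted p in limma was between 0.31 and 0.418. Of the 7 genes tested, 1 was apart and higher with the agomir (10.9% of all genes tested). Apart and lower were 4 of the 7 (6.36% of all genes tested).

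The label adipocyte was checked against markers of cell types. The list of fibroblast and matrix genes ran over a wide range, with COL3A1 at 7491 to 7916 FPKM and COL1A1 at 5473 to 6201 FPKM in the agomir NC libraries, and FN1, the gene of fibronectin, at 179.6 to 199.7 FPKM and POSTN, that of periostin, at 0.693 to 1.18 FPKM as its lowest. Of the 10 genes, DCN, a small matrix proteoglycan, was the one under an unadjusted p of 0.05 (10.9% of all genes tested). Its log2 fold change was -0.12 (limma, adjusted p = 0.376, SE 0.043), and the median of the list was -0.019. DCN came to a log2 fold change of 0 under quantile normalization and was under an unadjusted p of 0.05 in 11 of 16 settings. The list of mature fat cell markers summed to 13.1 ± 1.17 FPKM in agomir libraries and 14.1 ± 1.01 FPKM in controls (SD, n = 3 each), with CD36 and LPL as its most abundant genes. ADIPOQ, the gene of adiponectin, was at most 0.197 FPKM and LEP, that of leptin, at most 0.0368 FPKM in any library. Other genes of the list were higher over the 6 libraries, with CD36 between 4.45 and 6.50 FPKM, LPL between 3.48 and 4.33 FPKM, FABP4 between 1.54 and 3.57 FPKM and PLIN1, a coat protein of lipid droplets, between 0.974 and 1.56 FPKM. FABP4, a carrier of fatty acids, was the gene of this list under an unadjusted p of 0.05, at a log2 fold change of -0.49 (limma, adjusted p = 0.363, SE 0.17) and groups that overlapped.

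Markers of committed preadipocytes were all tested, 7 of 7, with a median log2 fold change of -0.033, and 3 were under an unadjusted p of 0.05 (10.9% of all genes tested). PPARG, the nuclear receptor that drives adipogenesis, had 3.39, 3.34 and 2.96 FPKM in agomir NC replicates 1 to 3 and 3.99, 3.69 and 3.91 FPKM in those of the agomir, a log2 fold change of 0.23 (limma, adjusted p = 0.407, SE 0.090). ICAM1, an adhesion molecule, had 4.09, 4.27 and 4.36 FPKM in agomir NC replicates 1 to 3 and 3.56, 3.21 and 3.40 FPKM in those of the agomir, a log2 fold change of -0.29 (limma, adjusted p = 0.31, SE 0.084). F3, the gene of tissue factor, had a log2 fold change of 0.16 (limma, adjusted p = 0.438, SE 0.069). Of the 7 genes, the groups were apart in these 3 alone, where they were apart in 17.2% of all genes tested. PPARG and F3 were higher and ICAM1 was lower in the agomir libraries. CEBPD and CEBPB, early factors of the adipocyte programme, were the most abundant, and their log2 fold changes of -0.041 and -0.033 came with overlapping groups. CEBPA was close to the filter, at a mean of 0.535 FPKM over the 6 libraries. Its groups overlapped, with a log2 fold change of 0.29 (limma, adjusted p = 0.681, SE 0.23).

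Of the genes that accompany DPP4 on early progenitors, 4 of 6 were tested, with a median log2 fold change of -0.018. SEMA3C, a secreted semaphorin, was the most abundant, at 69.8, 66.2 and 71.3 FPKM in agomir NC replicates 1 to 3 and 76.5, 80.0 and 76.1 FPKM in those of the agomir. All agomir libraries lay above the controls, with a log2 fold change of 0.17 (limma, adjusted p = 0.305, SE 0.045). CD55, a complement regulator and the second in abundance, had overlapping groups and a log2 fold change of -0.085. DACT2 and ANXA3, also tested, were lower in level, at means of 5.10 and 3.83 FPKM over the 6 libraries. PI16 and WNT2 were below the filter, at means of 0.340 and 0.439 FPKM.

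Several of the 10 markers are shared with other cell types, whose own markers were therefore examined. The endothelial list, relevant to CD34 and ENG, summed to 4.53 ± 0.444 FPKM in agomir libraries and 4.53 ± 0.297 FPKM in controls (SD, n = 3 each), mostly from VWF with TEK as the second gene. PECAM1 and CDH5, which define endothelial cells, were at most 0.147 and 0.182 FPKM, and EMCN was listed at 0. The leukocyte list, relevant to CD44 and DPP4, summed to 7.86 ± 0.769 and 7.98 ± 0.276 FPKM, mostly from CD14 and then CD68, while PTPRC, the common leukocyte antigen, was at most 0.119 FPKM. CSF1R, a leukocyte gene that lies next to PDGFRB in the RefSeq table, was at most 0.211 FPKM.

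The list of pericytes and smooth muscle, relevant to PDGFRB, summed to 489.9 ± 6.78 FPKM in agomir libraries and 502.1 ± 24.3 FPKM in controls (SD, n = 3 each), nearly all from TAGLN and ACTA2, contractile genes that cultured fibroblasts also express. Of the pericyte markers of the list, RGS5 and MCAM were at most 0.0816 and 0.127 FPKM, while CSPG4 was between 4.26 and 5.91 FPKM and ABCC9 between 1.73 and 2.72 FPKM. Of the endothelial, leukocyte and mural lists, 8 genes were tested in all. None had an unadjusted p under 0.05 in limma, where 10.9% of all genes tested did. The muscle precursor genes MYOD1 and MYOG, the Schwann cell gene SOX10 and the epithelial genes KRT18 and KRT5 were listed at 0 in every library. MYF5 was listed above 0 in 1 library, at 0.0191 FPKM, and S100B led the Schwann cell list at up to 4.87 FPKM. EPCAM and CDH1 led the epithelial list at up to 0.312 and 0.216 FPKM.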

How the data were processed

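Total RNA of 6 libraries was sequenced on an Illumina platform. The submitters' processing notes name fastp, HISAT2 and StringTie and the genome build ARS-UCD1.2, without versions or roles. The deposited values were FPKM as made by the authors, normalized for transcript length and mapped fragments. Reads shared by overlapping genes may have been split, and whether strand was used is not given in the sources used here. THY1, CD44 and DPP4 overlap a long noncoding RNA in the RefSeq table of ARS-UCD2.0, which was used only for names and neighbours and held all 10 markers. Whole reads could not be recovered, since among 2158 genes under a mean of 0.5 FPKM at most 8 shared a bin 0.002 wide of the log2 ratio between libraries. Depth is therefore unknown, and no counting error is given. Library totals ran from 365977 to 379361 FPKM.

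Genes whose mean over 6 libraries reached 0.5 FPKM were compared as log2(FPKM + 0.5) in limma (version 3.58.1, R 4.3.3). The test was two-sided and used limma's variance trend, and p was adjusted by Benjamini-Hochberg across 12422 genes. On this scale the change of low genes is understated. Intervals are at 95%. Single values were set against all 20 labelings in an exact permutation, whose smallest p is 0.1. The code was tested on simulated data. The markers, lists and alternatives were chosen with earlier results of these data known. Genes named were the 10 markers, the 2 most abundant genes of each list, those with an unadjusted p under 0.05 and those listed at 0 throughout, except 1 gene that is not reported here. RTL1, DIO3, ADORA2B, ZNF521, ADIPOQ, LEP, PECAM1, CDH5, PTPRC, CSF1R, RGS5, MCAM, CSPG4, ABCC9, FN1, POSTN and PLIN1 were named after their values were seen, as defining or neighbouring genes. PI16, WNT2, DACT2, ANXA3, HEY1 and CEBPA were also named after their values were seen, to complete the account of their lists. Of the listed genes, 2 had no row by symbol.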

Additional observations from a re-analysis of the deposited data

How the results depend on the processing

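No marker and no listed gene passed an adjusted p of 0.05 in any of the 15 alternatives. The number of all genes past it was 1, but 0 with the replicate block, 0 when no filter was used and 0 when limma's trend was off, and 0 to 2 with 1 library left out. No source used here says whether the replicate numbers pair libraries. Libraries of the same number deviated from their groups with correlations of -0.0506, 0.0532 and 0.0387. Libraries of different numbers were not compared in this way, so these values cannot settle whether the numbers pair libraries. The fit with the replicate block left NT5E at a log2 fold change of -0.25 (limma, adjusted p = 0.246). The number of markers under an unadjusted p of 0.05 was 1, but 2 without a filter and 2 with median-ratio scaling (NT5E and ENG), 2 without the variance trend (NT5E and ZNF423), and 1 to 2 with 1 library left out, THY1 joining without agomir NC replicate 1. The number with a positive log2 fold change was 4 of 8, but 2 with median-ratio scaling, and 1 to 5 with 1 library left out, 1 of 9 without agomir NC replicate 1 and 2 of 9 without agomir replicate 3, where CD34 passed the filter. The median log2 fold change of the markers was -0.0033, -0.020 with median-ratio scaling, -0.013 without a filter, 0.0020 with array weights and -0.056 to 0.0078 with 1 library left out. Of the listed genes, 20 were under an unadjusted p of 0.05, and 11 to 20 with 1 library left out, 13 without agomir replicate 2 and 11 without agomir replicate 3. The cause was not tested beyond the smaller number of libraries or the other genes used.

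Of 120 values of single markers under the alternatives, 110 kept their sign and 10 did not, all close to 0. With median-ratio scaling PDGFRB was at -0.0027 and CD44 at -0.0099, and with quantile normalization DPP4 was at -0.0030. With 1 library left out, PDGFRA ranged from -0.035 to 0.0086, PDGFRB from -0.027 to 0.072, CD44 from -0.012 to 0.029 and DPP4 from -0.056 to 0.088. For the 20 listed genes under an unadjusted p of 0.05, which were chosen for their change and so were likely to keep their sign, 299 of 300 values did, and DCN came to 0 under quantile normalization, which sets a gene of the same rank in all libraries equal by construction. Median-ratio scaling moved the median log2 fold change of all genes from 0.013 to -0.0020. The unknown depth limits what can be said of CD34, DLK1 and the other genes near 0.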
